A study of Rattus norvegicus with 6 samples.

Results

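The genes described here encode enzymes that make heme and the reductases that turn its breakdown product biliverdin into bilirubin. They were chosen by name: 9 symbols were listed, and 8 of them matched 1 gene each among the 21648 genes of the table. These were Alad, Uros and Urod for cytosolic steps of synthesis, Cpox, Ppox and Fech for mitochondrial steps, and Blvra and Blvrb for the biliverdin reductases. Alas1, the listed gene of the first mitochondrial step, matched no row and was not analysed here. The RNA came from neonatal rat ventricular myocytes (muscle cells of the heart) taken from wild-type pups 3 days after birth (the strain is not given in the labels) and kept in culture. Treated cultures received 10 µM of compound 915 for 72 h, a substance that the submitters name among agonists of ERRs, the estrogen-related receptors. Control cultures received an equal volume of DMSO, the solvent, for 72 h, with 3 libraries in each group. Cultures of both groups had been freed of part of their fibroblasts by 90 min of attachment to plastic, were seeded in 10% serum with 100 µM bromodeoxyuridine, and were later kept in medium with insulin, transferrin and selenium. Transferrin is the iron carrier of plasma, so the medium of both groups held an iron-binding protein. The labels call the libraries biological replicates and do not say if separate cell isolations were used, so that p-values cover only the variation among these libraries, part of which may be technical.

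Heme is an iron-holding porphyrin. Its synthesis begins in the mitochondrial matrix, where glycine and succinyl-CoA are joined, runs through several cytosolic enzymes, and ends in mitochondria, where ferrochelatase inserts iron. Heart muscle needs heme for the cytochromes of the respiratory chain and for the oxygen store myoglobin. Heme oxygenases open the ring to biliverdin with release of iron and carbon monoxide, and biliverdin reductases make bilirubin from it.

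With 915, transcripts of Uros, Urod, Fech and Blvrb were higher and those of Blvra were lower, while Alad, Cpox and Ppox did not pass the test. The changes ran from a 1.80-fold increase of Uros to a 1.22-fold decrease of Blvra. Of the 8 genes, 4 were called higher and 1 lower, against 24.3% of the 14253 tested genes called higher and 25.5% called lower in the same comparison (edgeR's quasi-likelihood test, adjusted p under 0.05 over all genes tested). The median log2 fold change over the 8 genes was 0.19, against −0.010 over all genes tested. In 5 of the 8 genes the libraries of the groups did not overlap, which was also so for 56.7% of all genes tested, so separation of the groups was common throughout the transcriptome. All 8 genes passed the filter on low counts.

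The count table held 30639244 to 38078137 counts in the 915 libraries and 36799845 to 40010826 in the DMSO libraries, and Uros, the gene with the fewest counts of the 8, had 251 to 461 counts per library. Levels below are deposited CPM, in which the authors brought the libraries to 1 common size, and which do not correct for transcript length, so levels are compared between groups and not between genes. Fold changes are on the log2 scale with TMM-scaled library sizes (a scaling that uses the bulk of genes), with the standard error (SE). Among the DMSO libraries, library 2 was the highest in 6 of the 8 genes. Marker genes of cardiac myocytes were measured at 24150 to 24471 summed CPM in 915 libraries and 17476 to 18363 in DMSO libraries, with 7 of 7 called higher, so the labelled cell type was plainly present in all libraries. Markers of other cells were mostly lower with 915, beside 24.3% of all genes tested called higher and 25.5% called lower. Of 8 fibroblast markers 5 were lower and 2 higher (13328 to 14136 summed CPM with 915, 25242 to 26314 with DMSO). Most of this sum came from the collagen genes Col1a1, Col1a2 and Col3a1. Their means were 6289, 2429 and 2826 CPM with 915, and 11988, 4427 and 7067 CPM with DMSO. Of the other fibroblast markers, Tcf21 and Thy1 were lower, Dcn and Pdgfra were higher, and Postn was level (1597 and 1606 CPM). Of 5 endothelial markers 4 were lower and 1 higher (47.2 to 48.1 summed CPM with 915, 60.0 to 64.3 with DMSO). Leukocyte markers, macrophage genes included, were lower for 4 of 7 and higher for 0 (106 to 128 summed CPM with 915, 210 to 225 with DMSO). Pericyte and smooth muscle genes were lower for 3 of 4 (596 to 641 summed CPM with 915, 1521 to 1661 with DMSO). Their part in the results below was not tested. In such bulk libraries, fewer cells of a type and changed levels of these genes within its cells cannot be told apart.

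**Figure D1:**
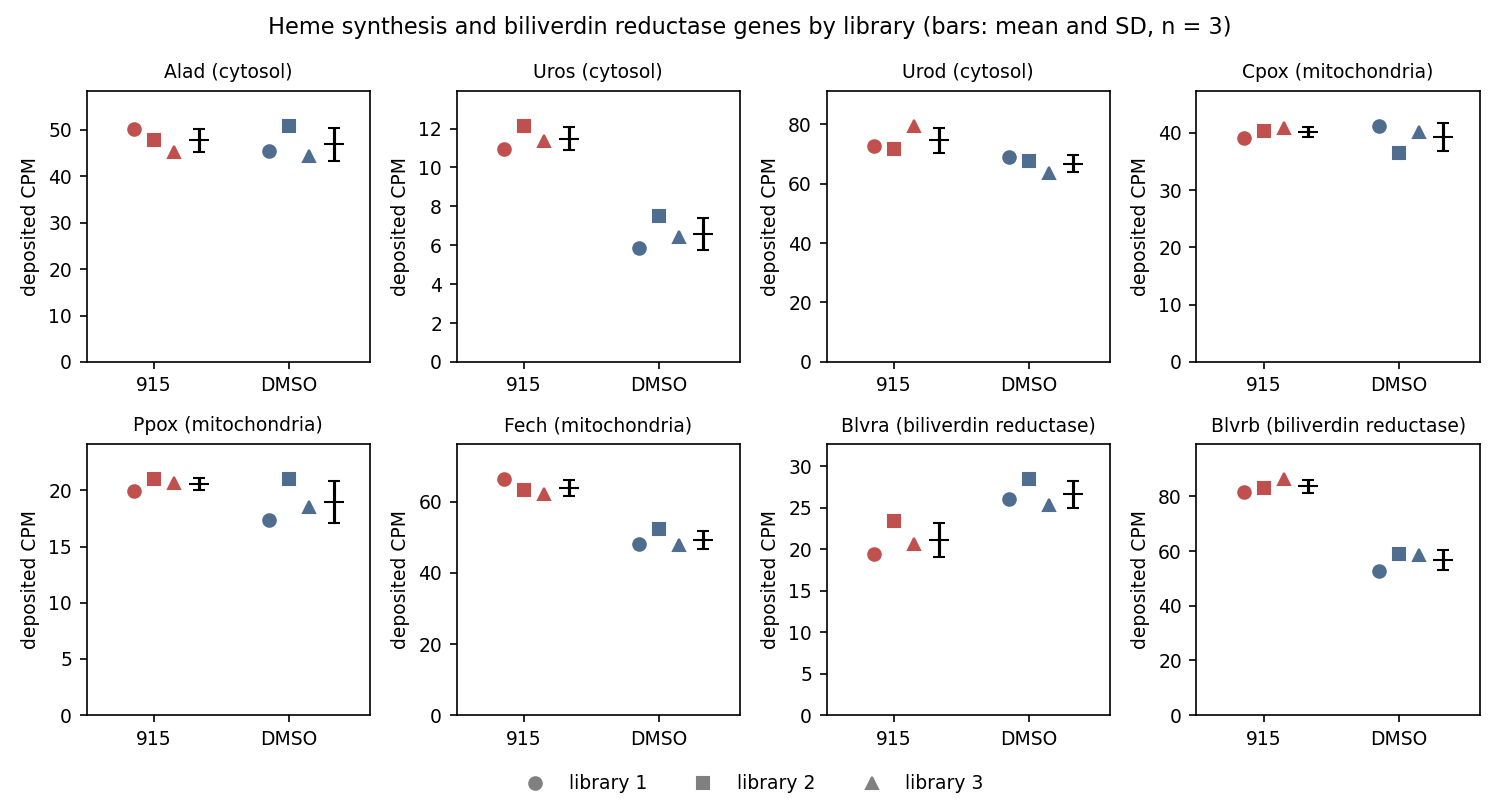
Deposited CPM (vertical axes, from 0) of the 8 genes in the 3 libraries with 915 and the 3 with DMSO, with symbols for library 1, 2 and 3 and black bars for the mean and SD. The 915 points of Uros, Urod, Fech and Blvrb all lie above the DMSO points, those of Blvra all lie below, and the points of Alad, Cpox and Ppox overlap.

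Among the cytosolic steps, Uros (ENSRNOG00000017810) showed the largest increase of the 8 genes. It encodes uroporphyrinogen III synthase, which closes and flips the linear tetrapyrrole into the isomer used for heme. Its transcripts were at 10.96, 12.1 and 11.3 CPM in 915 libraries 1 to 3, against 5.84, 7.49 and 6.43 CPM in DMSO libraries 1 to 3. The lowest 915 library lay well above the highest DMSO library. The log2 fold change was 0.85 ± 0.114 (SE; edgeR adjusted p = 2.63e-05), higher than that of 97.1% of the genes tested. In the later rat assembly GRCr8, Uros overlaps Bccip, a gene known for a partner of BRCA2 and of a cell cycle inhibitor, and the strand setting of the counting is not given in the sources used here. Bccip had 28.7, 28.0 and 31.9 CPM with 915 and 24.0, 25.3 and 27.4 CPM with DMSO, a 1.20-fold increase (edgeR adjusted p = 0.0118), and whether reads were shared between both genes was not tested.

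Urod (ENSRNOG00000018211), for uroporphyrinogen decarboxylase, the last cytosolic enzyme of the pathway, rose by less. It had 72.5, 71.8 and 79.4 CPM in 915 libraries 1 to 3 and 68.9, 67.7 and 63.5 CPM in DMSO libraries 1 to 3. The groups did not overlap, although the lowest 915 library stood only slightly above the highest DMSO library. The log2 fold change was 0.21 ± 0.0586 (SE; edgeR adjusted p = 8.44e-03), or 1.16-fold.

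Alad (ENSRNOG00000015206) encodes the zinc enzyme that joins pairs of aminolevulinate molecules into porphobilinogen, the first cytosolic step. It had 50.1, 47.8 and 45.3 CPM in 915 libraries 1 to 3, against 45.4, 50.9 and 44.4 CPM in DMSO libraries 1 to 3. The highest single value belonged to DMSO library 2, and the groups overlapped fully. The fold of 1.05 had a 95% confidence interval of 0.952 to 1.16 (edgeR adjusted p = 0.389), so a change of up to 1.16-fold is compatible with these libraries.

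Of the mitochondrial steps, 1 of 3 passed the test. Fech (ENSRNOG00000018053), for ferrochelatase, the inner membrane enzyme that places iron in the ring, was at 66.4, 63.4 and 62.1 CPM in 915 libraries 1 to 3. In DMSO libraries 1 to 3 it was at 48.1, 52.3 and 47.8 CPM. Every 915 library was above every DMSO library, by a margin larger than the spread within either group. The log2 fold change was 0.42 ± 0.0590 (SE; edgeR adjusted p = 3.99e-05), or 1.34-fold.

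Cpox (ENSRNOG00000001654), for the coproporphyrinogen oxidase of the intermembrane space, had 39.1, 40.4 and 40.9 CPM with 915 and 41.2, 36.5 and 40.1 CPM with DMSO. Its highest and its lowest library were both DMSO libraries. The fold of 1.06 had a 95% confidence interval of 0.965 to 1.16 (edgeR adjusted p = 0.296). Ppox (ENSRNOG00000003567), for protoporphyrinogen oxidase, which hands its product to ferrochelatase, had 19.96, 21.0 and 20.7 CPM with 915 and 17.4, 21.0 and 18.5 CPM with DMSO. DMSO library 2 was level with the highest 915 library, and the other DMSO libraries lay below all 915 libraries. The fold of 1.12 (95% confidence interval 0.989 to 1.27) did not pass with all libraries (edgeR adjusted p = 0.121), and it passed without DMSO library 2 (log2 fold change 0.25, edgeR adjusted p = 0.0195).

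Set side by side, mitochondrial and cytosolic steps did not form separate blocks. Of the 3 mitochondrial genes 1 was called higher, and their median was 0.16 on the log2 scale; of the 3 cytosolic genes 2 were, and their median was 0.21. The mean log2 CPM of the mitochondrial genes minus that of the cytosolic genes was 0.13, 0.12 and 0.12 in 915 libraries 1 to 3, against 0.30, 0.21 and 0.32 in DMSO libraries 1 to 3. The 915 libraries were thus lower in this measure, by 0.16 on average, with no overlap between groups. This direction rested on Uros: with Uros left out of the cytosolic mean, chosen after its values were seen, the difference was 0.082 in the opposite direction (−0.69, −0.63 and −0.68 with 915, −0.78, −0.78 and −0.69 with DMSO). Without Uros the groups overlapped, as 915 library 1 (−0.6927) lay just below DMSO library 3 (−0.6911). No test is given for these means, since the genes were chosen with results of these data known.

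**Figure D2:**
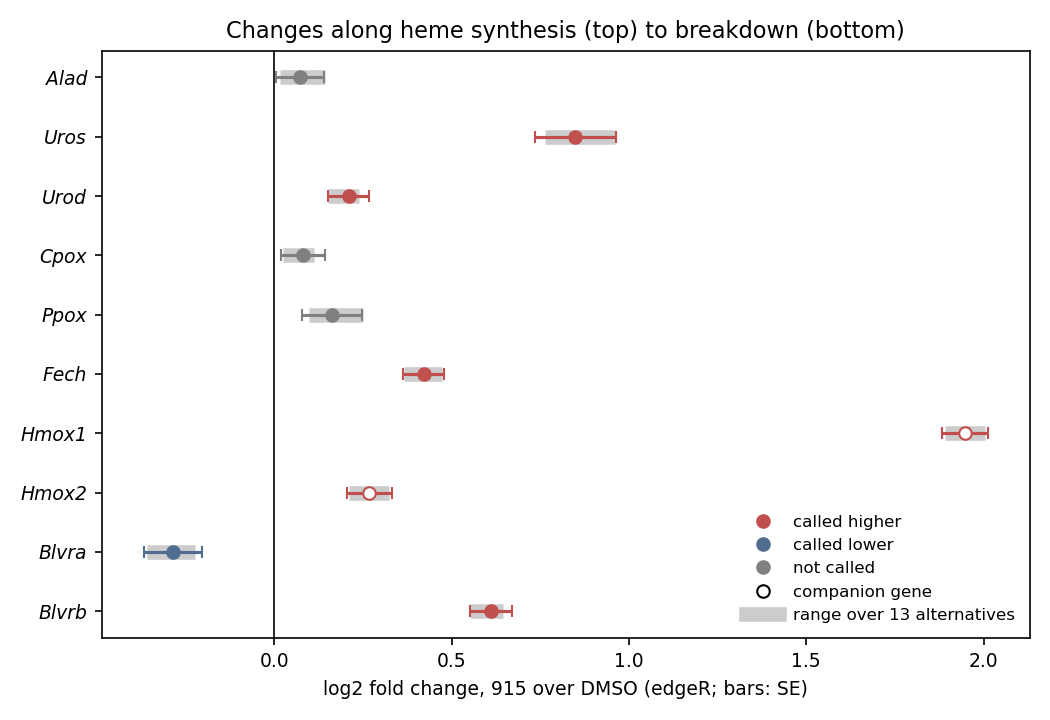
Log2 fold change of 915 over DMSO (horizontal axis, points with SE bars) for the 8 genes and 2 companion genes (open points) in the order of the pathway from the first cytosolic step of synthesis at the top to biliverdin reduction at the bottom. Grey bands span 13 other settings of the analysis; Hmox1 stands far to the right at 1.95, Blvra is the gene left of 0, and no band crosses 0.

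The biliverdin reductase genes moved in opposite directions. Blvrb (ENSRNOG00000024410) encodes the enzyme also known as flavin reductase, which in humans acts on biliverdin isomers other than the one that heme oxygenase makes. It was at 81.6, 83.2 and 86.3 CPM in 915 libraries 1 to 3 and at 52.6, 58.8 and 58.7 CPM in DMSO libraries 1 to 3. All 915 libraries were far above all DMSO libraries. The log2 fold change was 0.61 ± 0.0603 (SE; edgeR adjusted p = 1.28e-06), or 1.53-fold, higher than in 94.1% of the genes tested.

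Blvra (ENSRNOG00000011778) encodes the reductase for the main biliverdin isomer, an enzyme that also has reported roles in insulin signalling. It was at 19.4, 23.4 and 20.7 CPM in 915 libraries 1 to 3 and at 26.0, 28.5 and 25.4 CPM in DMSO libraries 1 to 3. Here the groups were also apart, with all 915 libraries below all DMSO libraries, although 915 library 2 came close. The log2 fold change was −0.29 ± 0.0821 (SE; edgeR adjusted p = 9.93e-03), and without 915 library 1 it was −0.22 and no longer passed (edgeR adjusted p = 0.0603). A long noncoding RNA gene, LOC134486146, overlaps Blvra in GRCr8, and its share of these counts was not tested.

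The ratio of Blvra to Blvrb CPM was 0.237, 0.281 and 0.239 in 915 libraries 1 to 3, against 0.495, 0.484 and 0.432 in DMSO libraries 1 to 3. Each 915 library had a lower ratio than every DMSO library. On the log2 scale the difference was −0.90, and no test is given for it, as the genes were chosen with results of these data known. As both genes are read from the same library, this ratio does not depend on how libraries are scaled.

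**Figure D3:**
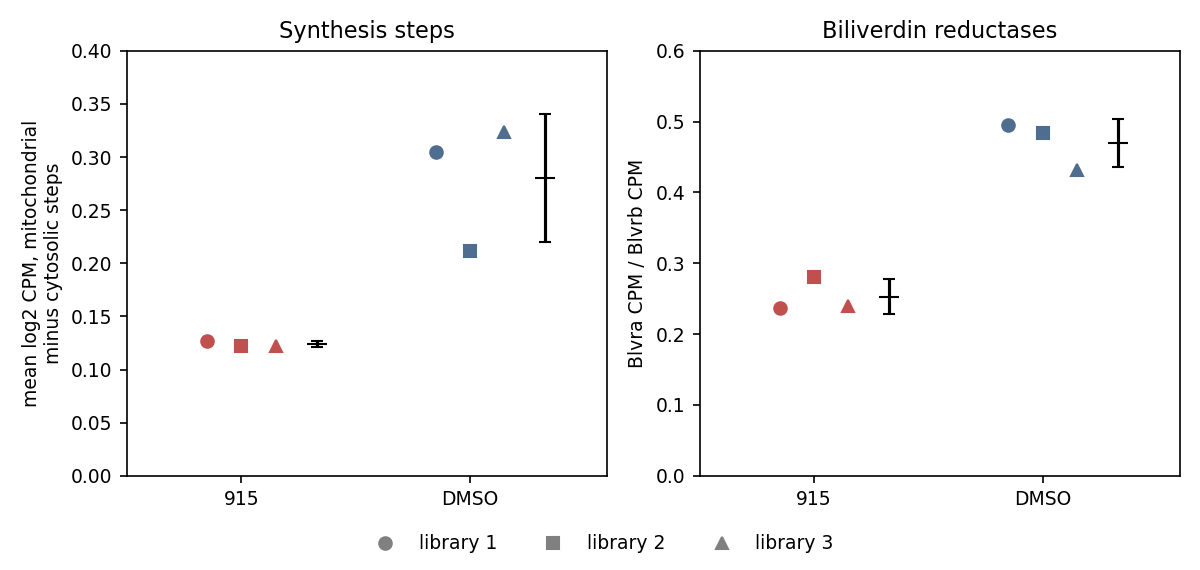
Left, mean log2 CPM of the mitochondrial synthesis genes (Cpox, Ppox, Fech) minus that of the cytosolic ones (Alad, Uros, Urod) in each library; right, Blvra CPM divided by Blvrb CPM; 915 libraries stand left of DMSO libraries in each panel and black bars give mean and SD. The ratio of the reductases is 0.253 on average with 915 and 0.470 with DMSO, and in both panels the 915 points lie below all DMSO points.

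Promoter sequences were sought for all 8 genes, since 915 is described as an agonist of receptors that bind DNA. Those of the genes that moved most are printed below. RefSeq promoter windows on GRCr8, from 250 bases before to 50 after the start, matched 7 of the 8 genes, all but Cpox. They were searched on both strands for TCAAGGTCA, the extended ERR response element, for its core AAGGTCA, which the longer motif contains, for GCATGCGC, the core of the motif of NRF1, a regulator of nuclear genes for mitochondria, and for TGACNNNGC, the core of the antioxidant response element. Among all 33469 windows of this length, 0.433% hold the first, 4.61% the second, 2.47% the third and 12.1% the fourth. The 7 windows held 1 match in all, for TGACNNNGC in Blvra on the reverse strand 145 bases before the start, which is in capitals below. The windows of Uros, Fech and Blvrb, the genes with the largest increases among those called, held none of the 4 motifs, which says only that these letters are not in these windows. The windows of Blvrb and Fech have 62.0% and 66.0% G and C, that of Uros 57.7% and that of Blvra 45.0%.
Uros, chr1:197942179-197942478, minus strand: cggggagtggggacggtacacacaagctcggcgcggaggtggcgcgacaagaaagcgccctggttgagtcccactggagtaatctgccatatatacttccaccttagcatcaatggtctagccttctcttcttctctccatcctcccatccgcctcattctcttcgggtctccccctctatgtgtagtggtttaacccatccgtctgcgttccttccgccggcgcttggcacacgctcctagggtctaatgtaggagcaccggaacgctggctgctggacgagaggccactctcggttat
Fech, chr18:60248476-60248775, minus strand: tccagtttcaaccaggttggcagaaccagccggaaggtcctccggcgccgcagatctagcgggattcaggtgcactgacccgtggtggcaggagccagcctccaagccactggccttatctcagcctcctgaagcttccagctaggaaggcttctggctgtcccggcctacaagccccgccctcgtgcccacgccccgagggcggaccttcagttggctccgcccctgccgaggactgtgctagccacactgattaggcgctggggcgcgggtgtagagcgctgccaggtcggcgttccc
Blvrb, chr1:91866008-91866307, plus strand: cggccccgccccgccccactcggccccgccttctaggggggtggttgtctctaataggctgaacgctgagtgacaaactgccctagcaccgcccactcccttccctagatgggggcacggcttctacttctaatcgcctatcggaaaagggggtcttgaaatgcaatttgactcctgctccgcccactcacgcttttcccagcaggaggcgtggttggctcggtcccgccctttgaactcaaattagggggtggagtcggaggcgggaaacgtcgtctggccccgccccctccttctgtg
Blvra, chr3:134802660-134802959, plus strand: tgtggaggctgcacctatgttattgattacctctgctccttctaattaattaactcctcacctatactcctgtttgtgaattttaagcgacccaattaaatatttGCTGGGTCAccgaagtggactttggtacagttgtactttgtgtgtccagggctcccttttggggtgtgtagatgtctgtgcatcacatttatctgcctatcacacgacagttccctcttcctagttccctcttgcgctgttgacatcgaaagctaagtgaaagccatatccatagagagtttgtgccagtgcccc

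At the step between synthesis and biliverdin reduction, the gene Hmox1 changed more than any of the 8 genes, and Hmox2 did not. Hmox1 (ENSRNOG00000014117) encodes the inducible heme oxygenase, which makes biliverdin. It was at 448, 415 and 482 CPM in 915 libraries 1 to 3, against 115, 128 and 117 CPM in DMSO libraries 1 to 3. The lowest 915 library was far above the highest DMSO library, and the log2 fold change was 1.95 ± 0.0640 (SE; edgeR adjusted p = 2.12e-11), or 3.86-fold. The constitutive enzyme gene Hmox2 rose 1.20-fold, with 55.8, 59.1 and 62.9 CPM with 915 and 49.4, 54.2 and 49.1 CPM with DMSO (edgeR adjusted p = 3.23e-03). Alas2, the erythroid form of the first enzyme, had 4 to 7 counts per library with 915 and 3 to 31 with DMSO and did not pass the filter. Without DMSO library 3 it entered the test and was called lower. With all 6 libraries and no filter on low counts, 0 of the other synthesis and breakdown enzymes, Alas2 included, were called lower. Among 6 tested erythroid markers 2 were higher and 1 lower, against 24.3% and 25.5% of all genes tested. The lower one was Epb42, at 0.182 CPM on average with 915 and 1.19 with DMSO (named after its values were seen). The 2 higher ones are both entries named Hba-a2, and whether they share reads was not tested. All 8 erythroid entries, with the untested Alas2 and Gata1, had 8.03 to 10.5 summed CPM with 915 and 6.28 to 8.50 with DMSO. The erythroid regulator Gata1 had 0 counts in all 6 libraries, which allows up to 0.0698 to 0.0917 CPM, the size of 3 counts.

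Genes for iron supply, iron-sulfur assembly and the building blocks of heme were counted against the shares over all 14253 tested genes. Of those, 24.3% were called higher and 25.5% lower. In the list for mitochondrial iron supply and iron-sulfur assembly 12 of 17 tested genes rose and 0 fell, and the median change was 0.36 on the log2 scale. Fdx1, a ferredoxin, Glrx5, a glutaredoxin that passes on iron-sulfur clusters, and Tfrc, the transferrin receptor, rose 1.66-fold, 1.53-fold and 1.49-fold. Glrx5 was at 152, 145 and 150 CPM with 915 and 93.0, 108 and 102 CPM with DMSO, a gap wider than the spread in either group. The list holds both table entries named Nfs1, which had under 1 CPM on average and may share reads. For glycine and succinyl-CoA, the building blocks, 7 of 9 genes were higher and 0 lower (median 0.27), beside the same 24.3% and 25.5% over all genes, among them Ogdh and Dlst, subunits of the complex that makes succinyl-CoA, at 1.58-fold and 1.21-fold, and Sucla2, a subunit of succinyl-CoA synthetase, at 1.24-fold. The same complexes serve the citric acid cycle.

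The lists for transport and for use of heme each held more genes called higher than lower. Of 14 genes of heme and porphyrin transport 6 rose and 1 fell, beside 24.3% and 25.5% of all genes tested, and the median was 0.17. About as large a part of this list passed the test as of all genes. Without 915 library 1 or 2 or DMSO library 3, 4 of its genes were called higher. The same number were when libraries were scaled by the plain sum of the table. Slc25a39, a mitochondrial carrier gene that is needed for heme synthesis in mice and zebrafish and is now known to import glutathione, rose 1.46-fold, with 194, 183 and 208 CPM with 915 and 139, 142 and 135 CPM with DMSO. Abcb6, a porphyrin transporter gene, and Abcb8, of a mitochondrial transporter, rose 1.29-fold and 1.23-fold. The lower gene was Flvcr2, of a transporter first described for heme, at 3.95, 4.62 and 4.97 CPM with 915 and 6.84, 5.78 and 6.88 CPM with DMSO (named after its values were seen). Of 20 genes of heme proteins and heme attachment 11 were higher and 2 lower (median 0.23), against 24.3% and 25.5% of all genes tested. The myoglobin gene Mb and the complex II gene Sdhc rose 1.81-fold and 1.37-fold. The lower ones were Sqor and Cyb5r3. Sqor, of the mitochondrial sulfide oxidase, a flavoprotein that works beside heme proteins, fell by 1.57-fold. Cyb5r3, of the reductase that acts on cytochrome b5 and not of the cytochrome, fell by 1.28-fold (named after its values were seen). Cycs, cytochrome c, was counted at only 3.18 ± 0.218 CPM with 915 and 2.43 ± 0.248 CPM with DMSO (SD, n = 3 each), and reads shared with near-identical copies were not tested for it.

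Among 17 genes of regulators, 11 were higher and 3 lower (median 0.30), against 24.3% higher and 25.5% lower over all genes tested. Esrrg and Ppargc1b, a receptor and a coactivator of the ERR system, rose 1.96-fold and 1.72-fold. Clpx, which encodes a mitochondrial unfoldase that activates the first enzyme of heme synthesis and also takes part in its breakdown, rose 1.44-fold, with 82.6, 89.5 and 85.4 CPM with 915 and 60.4, 60.8 and 64.0 CPM with DMSO. The lower genes, named after their values were seen, were Ireb2 and Aco1, for iron regulatory proteins, and the transcription factor gene Foxo1. They had log2 fold changes of −0.37, −0.13 and −0.21, and 1 gene was called lower without 915 library 1 or 2 or DMSO library 2 or 3. Of 13 other settings of the analysis, Ireb2 passed in 13, Foxo1 in 7 and Aco1 in 3.

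**Figure D4:**
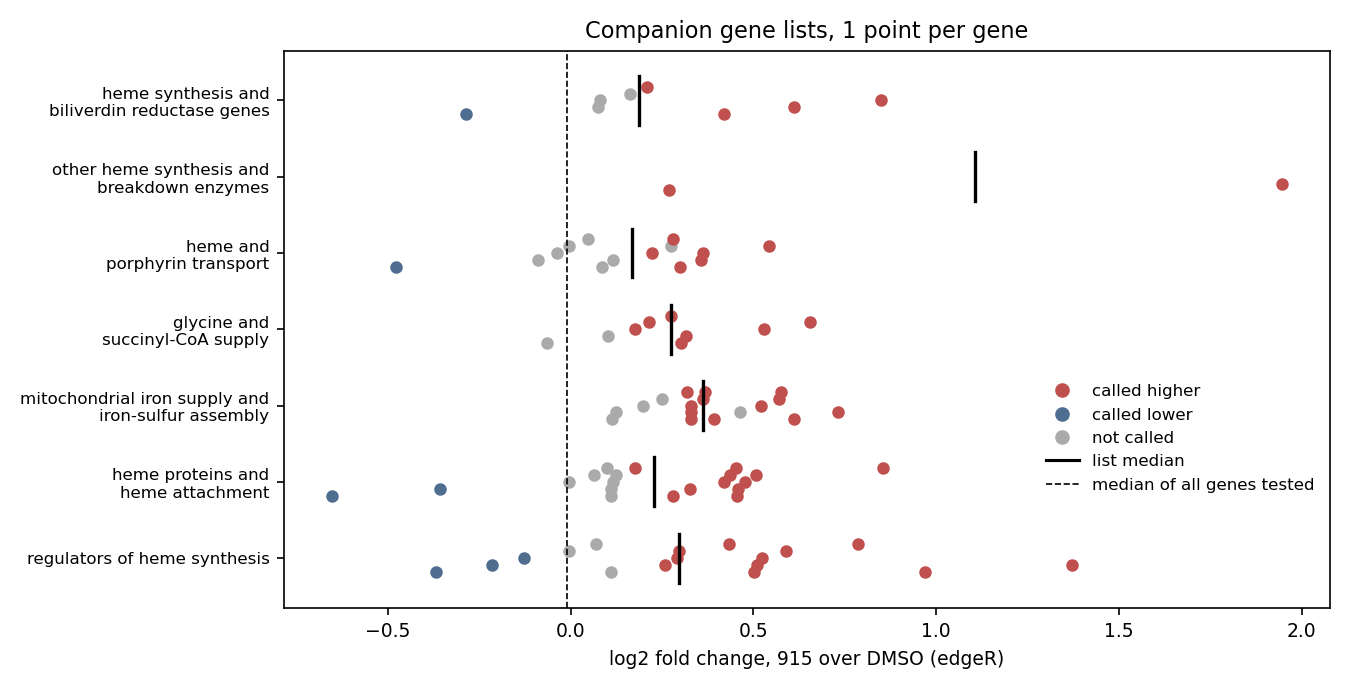
Log2 fold change of 915 over DMSO (horizontal axis) for each tested gene of the 8 and of 6 companion lists, 1 point per gene, with the list median as a black bar and the median of all 14253 tested genes as a dashed line. All medians, from 0.17 to 1.11, lie right of the dashed line at −0.010, and Hmox1 is the point at 1.95. The median of 1.11 is that of only 2 tested genes, Hmox1 and Hmox2.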

How the data were processed

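The authors deposited a table of read counts per gene and a table of CPM for 3 libraries with 915 and 3 with DMSO. Per the submitters' processing notes, the build was Rnor_6.0 and the tools were featureCounts of Subread (1.4.6-p5) and STAR (2.5.1a). The deposited CPM equal the counts divided by 1 total per library, of which the table holds 93.1% to 93.7%. Rows that repeat an Ensembl identifier (993 of 22641) were dropped. Genes were tested with edgeR 4.0.16 in R 4.3.3 (filterByExpr, TMM, quasi-likelihood on group alone, two-sided, Benjamini-Hochberg over 14253 genes, threshold 0.05), a procedure also tested on simulated counts. No library was a copy of another, since counts within a group varied beyond sampling noise (5.45 to 11.6 chi-square units per degree of freedom). Intervals and floors cover error between or within these libraries only, as reads carry no molecular identifiers. Alternatives covered DESeq2 1.42.0, scaling, filters, a block for the replicate number and each library left out. The 9 symbols, the 6 companion lists (79 of 84 entries matched, 2 of them through Entrez numbers of a RefSeq table on GRCr8) and the 6 marker lists (39 of 45 matched) were chosen with earlier results of these data known; some listed genes are not reported here. Named were all members and up to 3 genes per companion list with the smallest p past the threshold; Alas2, Cycs, Nfs1, Gata1 and those marked in the text were named after their values were seen. A rule to name genes most like Alas1 could not be applied, as that gene was not analysed here.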

Additional observations from a re-analysis of the deposited data

How the results depend on the processing

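In all, 26 results were recomputed under up to 13 other settings, and 1 of them under 1 more chosen after seeing the data. Of 329 values, 317 kept their direction and their side of the threshold, or for counts and means stayed close. Close was loose for counts, where 4 transport genes called higher against 6 were within it. The Blvra to Blvrb ratio was judged on direction alone. With the replicate block, that ratio and the difference between synthesis steps could not move, by construction. Uros, Urod, Fech and Blvrb passed in all 13 settings, and Alad and Cpox in 0. With each library left out in turn, Ppox ranged from 0.10 to 0.25 and passed without DMSO library 2, Blvra ranged from −0.36 to −0.22 and missed without 915 library 1, and the count of the 8 genes called lower ranged from 0 to 1. The count of other synthesis and breakdown enzymes called lower ranged from 0 to 1, and that of regulators from 1 to 2 against 3 with all libraries. The regulators called lower also numbered 1 in DESeq2 and 1 with the replicate block, and 1 gene of glycine and succinyl-CoA supply was lower when libraries were scaled by the plain sum of the table. The difference between mitochondrial and cytosolic steps, −0.16, was 0.082 without Uros. The causes were not tested. No pairing by replicate number was seen: same-numbered libraries had correlations of −0.034, −0.11 and −0.090 between their deviations from the group means, and none correlated best with its own number. With 3 libraries per group, these values cannot show whether same-numbered libraries came from 1 cell isolation. With the replicate block 2996 genes were called higher and 3197 lower, and 4 of the 8 genes higher and 1 lower. The 8 genes had 251 or more counts per library, and the SE was largest for Uros, Ppox and Blvra (0.114, 0.0836 and 0.0821); Alas2 was near the floor.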
